A study of Mus musculus with 42 samples.

Results

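Lungs of newborn mice that lacked the transcription factor NRF2 were compared with lungs of wild-type mice after 3 days of hyperoxia. The comparison rests on 6 of the 42 arrays of the study, chosen by the sample titles that name the genotype, day 3 and O2. Of these, 3 arrays came from knockout pups (KO, Nrf-/- in the labels) and 3 from wild-type pups (WT, Nrf+/+). Each array holds RNA from the homogenised lung of 1 mouse, so the replicates are animals. Both genotypes entered a chamber with 100 percent oxygen, stated as at least 95 percent, within the first day after birth (P1), stayed there for 23 h a day with foster dams, and were sampled at P4. KO and WT pups in room air at P4, and KO and WT pups after 1 and 2 days of hyperoxia, again 3 arrays each, served to ask whether the genotype difference at day 3 differed from that in air or earlier in the exposure. The targeting construct, strain, sex and litters of the pups were not given in the sources used here.

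NRF2 is kept low by KEAP1, which marks it for degradation. Oxidants and electrophiles release it, and in the nucleus it pairs with a small MAF protein and binds antioxidant response elements beside genes for glutathione synthesis, conjugation, quinone reduction and NADPH supply, while BACH1 competes for the same elements. High oxygen raises the production of reactive oxygen species in the lung, where NRF2 is known as a protective factor.

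The core letters of the antioxidant response element, TGACNNNGC on either strand, were searched in RefSeq promoter windows of the mouse assembly GRCm38.p6, each running from 250 bases before to 50 bases after an annotated start. Of the 42 genes of NRF2-linked function that were lower in KO, 33 had a window in that set and 9 of these (27.3%) held the motif in at least 1 window, against 7 of 53 (13.2%) among the members that were not called and 2334 of 14453 (16.1%) of all tested genes. Of all 32851 windows of that length 12.4% held it. A match is a description of letters and not a binding site, and elements outside these windows were not searched. The windows of the 4 genes with the largest falls among those 9 are printed, 5′ to 3′ on the gene's own strand, to show the letters searched for (capitals mark the motif): Gsta3 (chr1:21240335-21240634, plus strand), Srxn1 (chr2:152105274-152105573, plus strand), Txnrd1 (chr10:82858956-82859255, plus strand) and Me1 (chr9:86695865-86696164, minus strand).
Gsta3: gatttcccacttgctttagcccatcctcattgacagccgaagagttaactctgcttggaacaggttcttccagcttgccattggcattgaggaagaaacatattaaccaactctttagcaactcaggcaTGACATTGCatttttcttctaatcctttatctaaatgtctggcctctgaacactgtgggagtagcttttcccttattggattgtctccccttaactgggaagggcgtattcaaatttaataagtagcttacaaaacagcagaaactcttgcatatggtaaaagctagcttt
Srxn1: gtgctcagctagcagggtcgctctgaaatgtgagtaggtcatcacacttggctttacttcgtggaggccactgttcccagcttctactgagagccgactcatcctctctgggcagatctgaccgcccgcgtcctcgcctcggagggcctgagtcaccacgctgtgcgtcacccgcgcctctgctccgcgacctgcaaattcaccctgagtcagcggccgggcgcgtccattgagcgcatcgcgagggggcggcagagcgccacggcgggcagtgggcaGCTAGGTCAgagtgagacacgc
Txnrd1: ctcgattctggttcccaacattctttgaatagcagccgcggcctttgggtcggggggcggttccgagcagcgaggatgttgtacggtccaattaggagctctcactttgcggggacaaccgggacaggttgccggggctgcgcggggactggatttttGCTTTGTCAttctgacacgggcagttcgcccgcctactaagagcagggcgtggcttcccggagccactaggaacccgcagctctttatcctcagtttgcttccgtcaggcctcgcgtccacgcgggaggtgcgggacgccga
Me1: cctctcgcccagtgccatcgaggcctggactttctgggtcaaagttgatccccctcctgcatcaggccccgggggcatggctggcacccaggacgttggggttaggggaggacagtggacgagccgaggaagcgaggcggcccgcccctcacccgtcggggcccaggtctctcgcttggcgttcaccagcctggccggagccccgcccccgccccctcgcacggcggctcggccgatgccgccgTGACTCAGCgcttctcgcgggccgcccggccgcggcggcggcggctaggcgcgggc

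The targeted gene followed the labels. Nfe2l2, which encodes NRF2, read 4.81, 4.41 and 5.46 on the log2 scale of the arrays in KO lungs, against 11.01, 11.23 and 11.56 in WT lungs. The median KO value stood at the 21.5th percentile of the array signal, where low levels are compressed, so the difference of −6.38 ± 0.18 (SE, n = 3 each; limma adjusted p = 1.29e-22) is only a lower limit, and a fold is left out. A second probe set of the gene read 6.70 in KO and 7.13 in WT on average and did not follow the deletion.

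The 6 arrays differed in other ways as well. Lung identity genes such as Sftpc and Ager were high throughout, with a mean over 9 markers of 12.6 to 12.8 in KO and 12.6 to 12.8 in WT. Liver transcripts, which a dissected lung can carry along, stood at −0.02, −0.29 and −0.17 log2 units from the median of the 42 arrays in KO (mean over 12 genes), against 4.84, 1.39 and 3.34 in WT. Albumin (Alb) read 7.39, 6.70 and 6.75 in KO and 13.15, 9.63 and 11.98 in WT. Tracheal cartilage genes stood at 0.62, 0.57 and 0.12 in KO and −0.06, −0.06 and −0.10 in WT (13 genes). Xist, which is high in females, read 7.21, 6.78 and 6.64 in KO, against 12.01, 8.84 and 11.94 in WT, so WT replicates 1 and 3 stood apart from the other 4 arrays. Fits with a score of the sex genes or of liver and other tissues as covariates called 1622 and 2370 genes. Every WT array stood above every KO array in liver transcripts, so in fits without single arrays liver RNA and genotype cannot be told apart. Beyond the covariate fits, the part of liver RNA and sex in the results was not tested. Array medians ran from 6.31 to 6.40 over the study, Gapdh probe sets for the 3′ and 5′ ends differed by −0.05 to −0.02 in KO and 0.01 to 0.09 in WT (log2), and all 6 arrays correlated best with an array of their own group.

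After 3 days of hyperoxia limma called 1786 of 18194 genes (9.82%) at an adjusted p under 0.05, 668 higher (3.67%) and 1118 lower in KO (6.14%). Of these, 129 differed at least 2-fold, 19 upward and 110 downward. The median over all genes was 0.01. The 3 KO and 3 WT values did not overlap for 30.2% of genes, KO above for 16.1% and below for 14.2%, and 8.98% were both called and free of overlap. Leaving out single arrays gave 932 to 1888 calls, with 1163 and 932 without KO replicates 1 and 2, 1144 and 1041 without WT replicates 1 and 3. With WT replicate 2 as the only WT array 258 genes were called, and a fit on the 6 arrays alone called 284. Of 147 called genes that the naming rule covers, 97 lost their call in the first of these fits and 90 in the second.

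Many antioxidant and detoxifying genes of NRF2-linked function were lower in KO lungs, though most of their lists' members were not called. Of 105 measured members of 6 lists (glutathione synthesis, glutathione S-transferases, peroxidases and thioredoxins, quinone and aldehyde detoxification, NADPH production, and heme and iron handling), 42 (40%) were lower in KO and 0 higher by limma, and 63 were not called. At an unadjusted p under 0.05, 2 members were higher. The share of all genes that were lower was 6.14%, and the median of the members was −0.22, against 0.01 for all genes. Lists and members were chosen with earlier results of these data known, so this comparison is not independent of the data. With WT replicate 2 as the only WT array 27 members were lower, and 35 to 39 were lower when single arrays were left out. The 6 arrays alone gave 24. In whole-lung RNA, fewer cells of a type and less RNA per cell cannot be told apart.

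**Figure D1:**
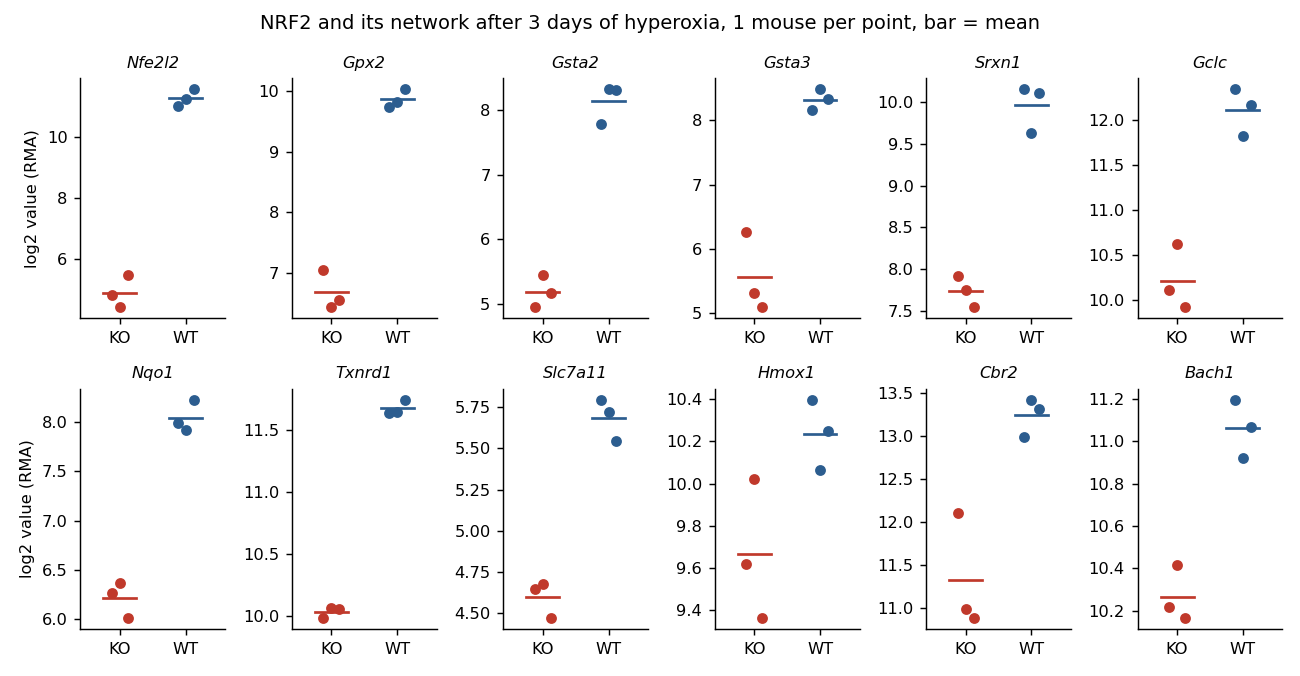
Log2 values (y axes, each with its own range) of 12 genes of the NRF2 network in KO (left, red) and WT lungs (right, blue) after 3 days of hyperoxia, 1 point per mouse with the group mean as a bar. In all 12 panels the KO points lie below the WT points, most closely for Hmox1, where the highest KO value is 10.02 and the lowest WT value 10.06.

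Glutathione is made by glutamate-cysteine ligase, whose catalytic subunit is Gclc and whose modifier is Gclm. Gclc read 10.11, 10.62 and 9.92 in KO, against 12.34, 11.82 and 12.16 in WT, a difference of −1.89 ± 0.14 (SE; 3.70-fold lower; limma adjusted p = 2.75e-11). Gclm read 9.49, 9.60 and 9.72 in KO and 10.27, 10.34 and 10.59 in WT, 1.74-fold lower in KO. Slc7a11, the transporter that brings in cystine for glutathione, read 4.65, 4.68 and 4.47 in KO and 5.79, 5.72 and 5.55 in WT, −1.09 ± 0.08 (SE; limma adjusted p = 7.48e-11), a minimum because the median KO value stood at the 17.7th percentile. The groups did not overlap for any of the 3 genes. Glutathione reductase (Gsr), which restores the reduced form, fell by 0.70 and glutathione synthetase (Gss) by 0.55 on the log2 scale. The exporters Abcc1 and Abcc3, which carry glutathione conjugates out of cells, were at −0.44 and −0.41. Of the 13 measured genes of this list 9 were lower and 0 higher. The remaining members called, Slc3a2 (−0.26) and Abcc4 (−0.57), each lost the call without 3 of the 6 arrays, Slc3a2 without KO replicate 3 (limma adjusted p = 0.247), WT replicate 1 (0.0833) or WT replicate 3 (0.188) and Abcc4 without KO replicate 1 (0.0676), WT replicate 1 (0.0953) or WT replicate 3 (0.0562).

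Glutathione S-transferases, which attach glutathione to reactive molecules, held some of the largest falls. Gsta2 read 4.96, 5.45 and 5.17 in KO, against 7.77, 8.31 and 8.31 in WT (−2.94 ± 0.22, SE; 7.68-fold lower; limma adjusted p = 3.27e-11). Gsta3 read 6.27, 5.32 and 5.09 in KO, against 8.15, 8.48 and 8.33 in WT (−2.76 ± 0.29, SE; 6.79-fold lower). For both genes every KO array lay at least 1 log2 unit below every WT array. Their KO values stood at the 29.7th and 32.4th percentile of the arrays, low on the scale, so both folds are best read as minimum values. Gstm1 was 3.16-fold lower and Gstp1 1.67-fold lower, with KO values of 11.84, 11.69 and 11.74 and WT values of 12.46, 12.48 and 12.56 for Gstp1. Gstm2 and the microsomal Mgst1 were at −0.76 and −0.72. Of 22 measured transferases 9 were lower and 13 were not called. Of the remaining members called, Gstk1 (−0.41) ended without WT replicate 3 (limma adjusted p = 0.0608), Gsta4 (−0.92) without KO replicates 2 or 3 (0.136 and 0.131) or WT replicates 2 or 3 (0.0722 and 0.0901), and Gstm4 (−0.28) without any array but KO replicate 1 (0.0675 to 0.183). Members of this family are close in sequence, and how far a probe set reads a relative was not tested.

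Among enzymes that remove peroxides and repair oxidised thiols, Gpx2, a glutathione peroxidase of epithelia, showed a large fall. It read 7.04, 6.43 and 6.56 in KO and 9.74, 9.81 and 10.03 in WT (−3.18 ± 0.16, SE; 9.08-fold lower; limma adjusted p = 8.74e-16). Srxn1, sulfiredoxin, which restores overoxidised peroxiredoxins, read 7.92, 7.76 and 7.55 in KO and 10.15, 9.62 and 10.10 in WT, 4.65-fold lower. Txnrd1, the cytosolic thioredoxin reductase, read 9.98, 10.07 and 10.06 in KO and 11.64, 11.65 and 11.74 in WT, 3.12-fold lower, and the arrays of each genotype lay close together. The superoxide dismutase Sod1 fell by 0.51 and Txnrd3, a relative of Txnrd1, by 0.41 on the log2 scale. Catalase (Cat) was at −0.56 and thioredoxin (Txn1) at −0.19. Cat lost its call without KO replicate 1 (limma adjusted p = 0.115) or WT replicate 2 (0.0873), and Txn1 without any array but KO replicate 1 (0.0556 to 0.0887). The other 13 of 20 members were not called, among them the mitochondrial forms Sod2 (0.02), Prdx3 (−0.02) and Txnrd2 (0.12).

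Quinone, aldehyde and epoxide detoxification gave 10 lower members of 26 and 0 higher. Nqo1, the quinone reductase that is a standard readout of NRF2, read 6.27, 6.37 and 6.01 in KO and 7.99, 7.92 and 8.22 in WT (−1.83 ± 0.16, SE; 3.56-fold lower; limma adjusted p = 2.49e-09). The aldehyde oxidase Aox1 was 3.08-fold lower and the retinaldehyde dehydrogenase Aldh1a1 4.85-fold lower, with KO values of 10.95, 8.94 and 9.50 and WT values of 11.71, 12.37 and 12.14. Aox3, Akr1b8, Cbr3 and Ephx1 fell by 1.37, 1.11, 0.86 and 0.67 on the log2 scale. The remaining members that fell, Cbr2, Cyp2f2 and Ces1d, are described with the airway genes. Enzymes that supply NADPH were lower in 4 of 10: malic enzyme Me1 by 1.04 and Pgd of the pentose phosphate path by 0.95 as falls on the log2 scale, both with non-overlapping groups, and Taldo1 (−0.48) and Tkt (−0.36), the last not without KO replicate 2 (−0.27; limma adjusted p = 0.0515).

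Among heme and iron genes 3 of 14 were lower. Heme oxygenase 1 (Hmox1), which breaks down heme, read 9.62, 10.02 and 9.36 in KO and 10.40, 10.06 and 10.25 in WT, −0.57 ± 0.13 (SE; 1.48-fold lower; limma adjusted p = 0.00573). The gap between the groups was narrow, and with WT replicate 2 as the only WT array the difference was −0.39 (limma adjusted p = 0.329). The heme transporter Slc48a1 read 9.38, 9.56 and 9.48 in KO and 9.93, 10.10 and 10.25 in WT (−0.62 ± 0.10, SE). Ferroportin (Slc40a1) was at −0.59 and lost its call without any 1 of the 6 arrays (limma adjusted p from 0.072 to 0.136).

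Genes of the regulators themselves were also lower. Of 14 partners and repressors of NRF2, 8 (57.1%, against 6.14% of all genes) were lower in KO and 0 higher, with Nfe2l2 itself among the 8. The count was 5 without KO replicate 2 and 5 without WT replicate 3. Bach1, the repressor that competes with NRF2, read 10.21, 10.42 and 10.16 in KO and 11.20, 10.92 and 11.07 in WT (−0.80 ± 0.10, SE; 1.74-fold lower; limma adjusted p = 3.24e-06). Bach2 had the same fold, and the small MAF gene Maff was at −0.74. With WT replicate 2 as the only WT array Maff was not called (limma adjusted p = 0.243). Mafk (−0.38) ended without WT replicate 1 (limma adjusted p = 0.0607), Mafg (−0.37) without KO replicates 2 or 3 (0.074 and 0.0993) or WT replicate 3 (0.159), and Sqstm1 (−0.22), which binds KEAP1, without KO replicates 2 or 3 (0.0679 and 0.157) or WT replicates 1 or 3 (0.0607 and 0.186). Keap1 read 8.76, 8.75 and 9.11 in KO and 9.14, 9.19 and 9.26 in WT (−0.32 ± 0.09, SE). The call of Keap1 ended without KO replicate 1 (limma adjusted p = 0.0953), KO replicate 2 (0.108) or WT replicate 3 (0.0754).

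**Figure D2:**
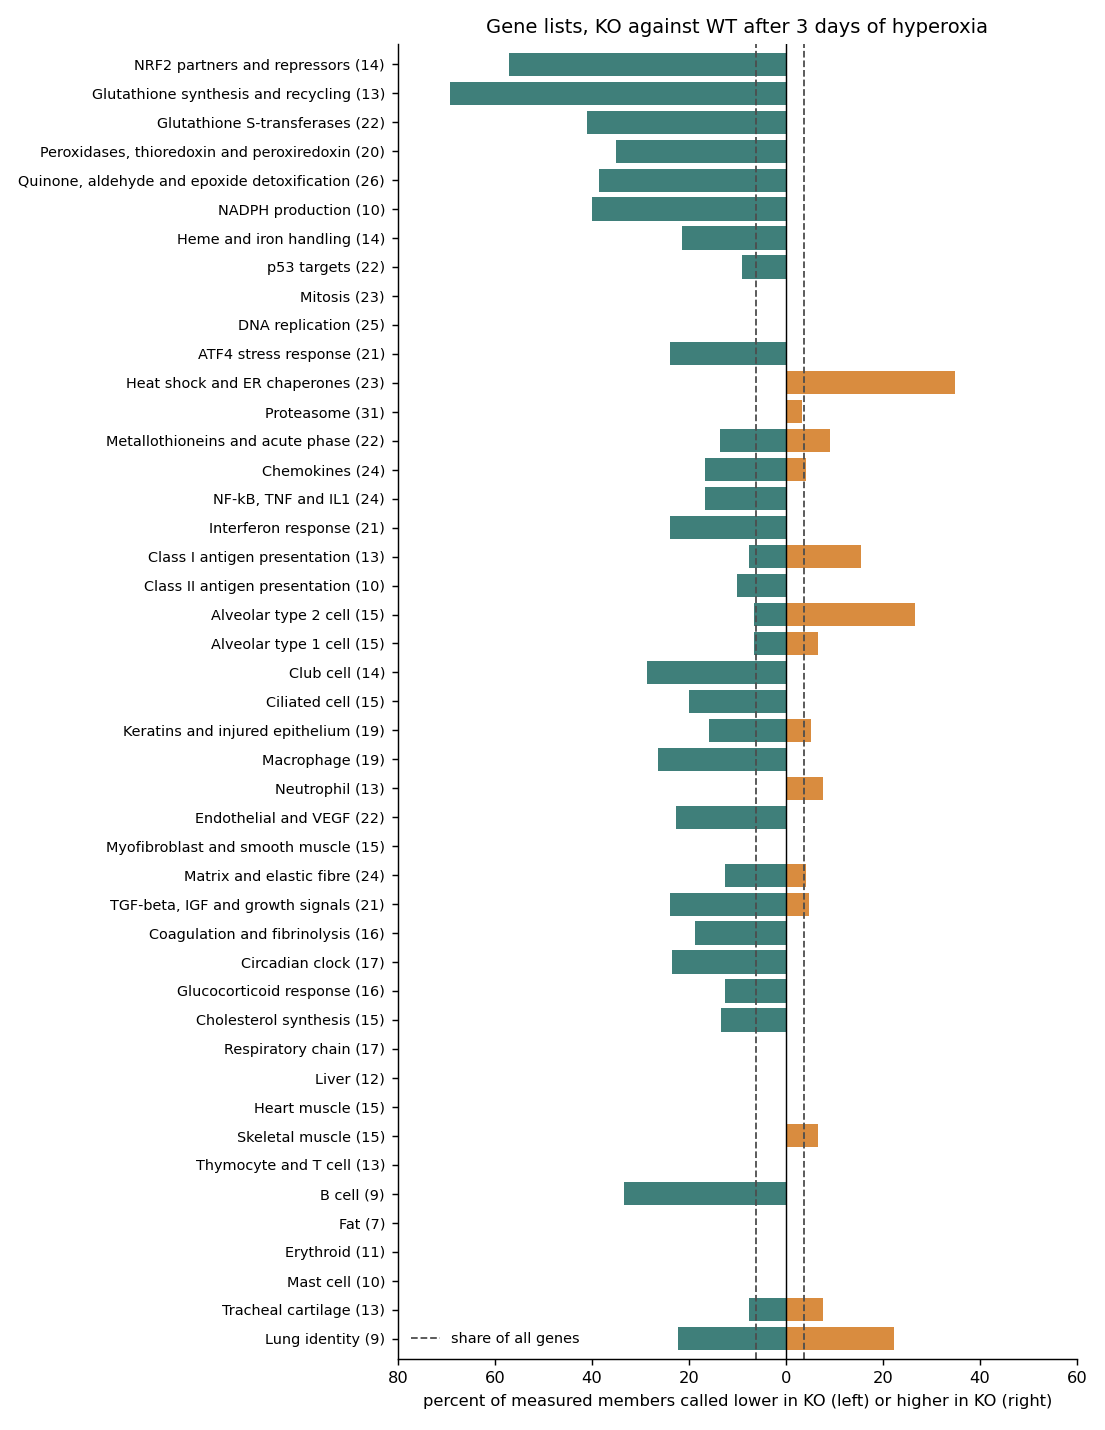
Share of measured members (x axis, percent) called lower in KO (left of 0, green) or higher in KO (right, orange) for 45 gene lists, with the number of measured members in brackets. Dashed lines mark the shares over all 18194 genes, 6.14% lower and 3.67% higher. The lists of NRF2-linked function lie left of the dashed line, and heat shock and ER chaperones reach furthest right.

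Whether hyperoxia widened the gap between genotypes was tested against pups of the same age in air. In air at P4 132 genes differed by genotype (0.726%). KO pups in air and in hyperoxia also differed in the sex genes, as given in the next paragraph. The difference in hyperoxia minus that in air passed limma for 102 genes (0.561%), 29 higher and 73 lower (0.401%). Of the 105 NRF2-linked members 14 were among the lower ones and 0 among the higher ones. Srxn1 is 1 of these: in air it read 7.23 ± 0.30 in KO and 7.41 ± 0.06 in WT (SD, n = 3), and in hyperoxia 7.74 ± 0.18 in KO and 9.96 ± 0.29 in WT. Oxygen against air thus gave 0.52 ± 0.16 in KO and 2.54 ± 0.16 in WT (SE), and the test of the difference gave −2.03 ± 0.22 (SE; limma adjusted p = 9.67e-07).

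Other members did the same to different degrees. The oxygen response itself was called for 5760 genes in KO (31.7%) and 5010 in WT (27.5%). Xist, which is high in females, read 12.01, 11.89 and 11.69 in KO in air at P4, against 7.21, 6.78 and 6.64 in KO in hyperoxia. In WT it read 12.41, 8.28 and 6.88 in air and 12.01, 8.84 and 11.94 in hyperoxia. The Y-linked gene Eif2s3y read 4.20, 4.02 and 4.18 in KO in air and 9.55, 9.71 and 9.55 in KO in hyperoxia. By these genes the KO pups were female in air and male in hyperoxia, so in KO oxygen and sex cannot be told apart. With the score of sex genes as covariate the genotype difference in hyperoxia minus that in air was called for 45 genes. Gpx2 rose with oxygen by 0.44 in KO and 2.79 in WT (difference −2.35; limma adjusted p = 8.32e-08), and Txnrd1 by 1.52 in WT, with 0.17 in KO not called (difference −1.35; limma adjusted p = 8.32e-08). Gclc rose in both, by 1.00 in KO and 2.32 in WT (difference −1.32; limma adjusted p = 2.71e-04). The oxygen response of Gsta2 had opposite signs, −1.21 ± 0.22 in KO and 1.78 ± 0.22 in WT (SE; difference −3.00; limma adjusted p = 3.67e-07). Its levels in air were 6.40 ± 0.20 in KO and 6.35 ± 0.26 in WT (SD, n = 3). Nqo1 also moved apart, by −0.55 in KO and 0.88 in WT. The differences of Gpx2, Gsta2, Srxn1, Txnrd1, Gstm1 and Slc7a11 passed in every alternative run, and those of Nqo1 and Gclc in all but the fit with WT replicate 2 as the only WT array (limma adjusted p = 0.085 for both) and, for Gclc, a fit restricted to the 12 hyperoxia and air arrays at P4 (0.0603).

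Other genes did not pass the test of that difference. Gsta3 was lower in KO in air already, at −2.76 ± 0.29 in hyperoxia and −2.41 ± 0.29 in air (SE), with a difference between them of −0.36 (limma adjusted p = 0.71). Hmox1, not called between genotypes in air (−0.35; limma adjusted p = 0.267), rose with oxygen by 1.66 ± 0.13 in KO and 1.88 ± 0.13 in WT (SE), and the genotypes' difference in that rise, −0.22 ± 0.19, did not pass (limma adjusted p = 0.601). Cdkn1a, the p53 target that halts the cell cycle, rose by 3.18 in KO and 3.19 in WT (SE 0.16 each), and read 12.71, 13.01 and 13.04 in KO and 13.07, 13.02 and 13.07 in WT in hyperoxia, which limma did not call.

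**Figure D3:**
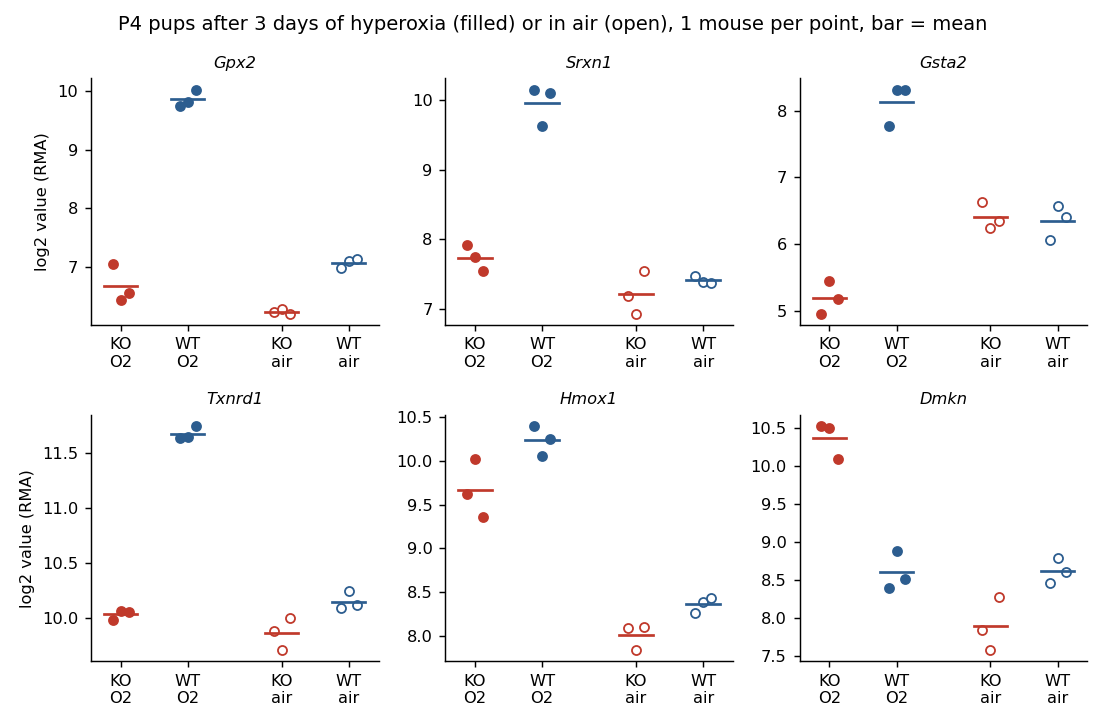
Log2 values of 6 genes in P4 pups after 3 days of hyperoxia (filled) and in air (open), KO left of WT in each pair, 1 point per mouse and the mean as a bar. Gpx2, Srxn1, Gsta2 and Txnrd1 are highest in WT hyperoxia lungs, Hmox1 is high in both hyperoxia groups, and Dmkn is highest in KO hyperoxia lungs.

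Over the days of exposure the NRF2-linked genes were lower in KO in 33 of 105 after 1 day (share of all genes lower 0.896%), 42 after 2 days (2.03%), when 1 was higher, and 42 after 3 days (6.14%). Srxn1 stood at −1.10 after 1 day, −1.16 after 2 days and −2.22 after 3 days, and its difference between day 3 and day 2 passed (limma adjusted p = 0.00408; 0.226 with WT replicate 2 as the only WT array). Gclc gave −0.96, −1.05 and −1.89 over the same days. Gpx2 was at −2.92 after 1 day, −3.38 after 2 days and −3.18 after 3 days, and its day 3 against day 2 test did not pass (limma adjusted p = 0.677). The direct test of day 3 minus day 2 called 845 genes (4.64%), 159 higher (0.874%) and 686 lower (3.77%), of which 12 were NRF2-linked members, and that of day 3 minus day 1 called 437 (2.4%), 358 lower (1.97%), with 9 members.

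**Figure D4:**
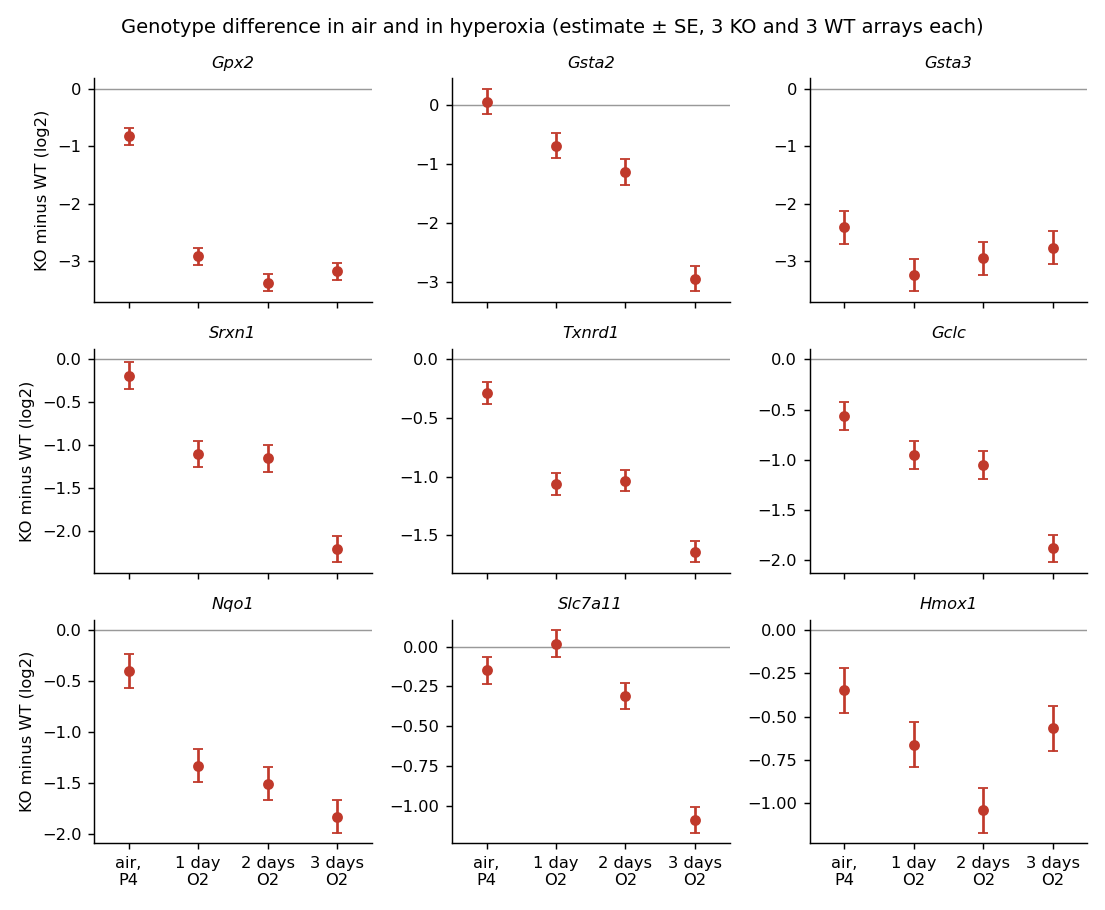
KO minus WT on the log2 scale (y axes, estimate ± SE, 3 KO and 3 WT arrays per comparison) for 9 genes in air at P4 and after 1, 2 and 3 days of hyperoxia. Srxn1, Txnrd1, Gclc and Gsta2 are lowest after 3 days, while Gsta3 is near −2.4 or below in all 4 comparisons.

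Some genes switched direction between day 2 and day 3. After 2 days 934 genes were called (5.13%). Of the genes called at day 3, 59 were called the opposite way at day 2, and 164 the same way (17.6% of the genes called at day 2, 9.18% of those at day 3). The clock gene Per1, which glucocorticoids also induce, read 10.18 ± 0.17 in KO and 7.64 ± 0.12 in WT after 2 days (SD, n = 3), and 9.51, 8.69 and 8.40 in KO against 10.20, 9.54 and 10.11 in WT after 3 days. Its change between days was −3.62 ± 0.40 (SE; limma adjusted p = 1.03e-06, called in every alternative run), and the day 3 difference itself, −1.08 (limma adjusted p = 0.014), ended without KO replicates 2 or 3 (0.0642 and 0.0746) or WT replicates 1 or 3 (0.0661 and 0.0605). The sulfonated steroid transporter Slc10a6 was at 1.45 after 2 days and −1.49 after 3 days, and Npr3, the clearance receptor for natriuretic peptides, at 1.12 and −1.16. Of 17 clock genes 4 (23.5%, against 6.14% of all genes) were lower at day 3 (Per1, Cry1, Nfil3 and Bhlhe40), but 0 without KO replicate 3 and 0 without WT replicate 1. The hour of sampling is not given in the sources used here.

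Some genes of protein folding were higher in KO. Of 23 heat shock and ER chaperone genes 8 were higher (3.67% of all genes were) and 0 lower, with a median of 0.21. The calcium-binding chaperone calreticulin (Calr) read 13.07, 12.98 and 13.06 in KO and 12.58, 12.76 and 12.73 in WT (0.35 ± 0.06, SE; 1.27-fold; limma adjusted p = 2.25e-04). Pdia6, a disulfide isomerase, was 1.27-fold higher, Pdia3 1.22-fold and the cytosolic Hspa8 1.15-fold. With all probe sets of a gene averaged, Pdia6 and Hspa8 were not called (limma adjusted p = 0.173 and 0.579). These changes are small beside those of the antioxidant genes, and the groups did not overlap for the 4 named. The oxygen response of Calr was −0.18 in KO and −0.60 in WT, and the difference passed (0.42 ± 0.08, SE; limma adjusted p = 0.0106; 0.0538 with the score of sex genes as covariate). The inducible Hspa1b read 10.15, 10.37 and 10.10 in KO and 9.25, 9.59 and 9.28 in WT. Its call (limma adjusted p = 0.0134) ended without KO replicate 2 (0.0668) or WT replicates 1 or 3 (0.0551 and 0.0548). Without KO replicate 2, WT replicate 1 or WT replicate 3 the list had 5 members higher, and with WT replicate 2 as the only WT array 1.

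Genes of the alveolar type 2 cell, which makes surfactant, were partly higher. Of 15 markers 4 (26.7%, against 3.67% of all genes) were higher and 1 (6.67%, near the 6.14% of all genes) lower. The number higher was 1 without KO replicate 2 or without WT replicates 1 or 2. Surfactant protein D (Sftpd), a collectin of innate defence, read 13.57, 13.80 and 13.55 in KO and 13.11, 12.97 and 13.15 in WT (0.57 ± 0.11, SE; 1.48-fold; limma adjusted p = 0.00125). Sftpa1 was at 0.47, Napsa at 0.53 and Ctsh at 0.47. Those 3 each lost the call without single arrays, Sftpa1 without KO replicate 2 (limma adjusted p = 0.0724) or WT replicates 1 or 2 (0.0556 and 0.0615), Napsa without KO replicate 2 (0.125) or WT replicates 1 or 2 (0.0833 and 0.0867), and Ctsh without any 1 of the 6 (0.051 to 0.123). Sftpc, the most specific marker, did not pass (−0.09 ± 0.05, SE; limma adjusted p = 0.235), but at 14.52 to 14.70 it read near the arrays' maximum (14.97 to 15.04), where a difference may not register. Sftpb did not pass either. The lower member was Hc, complement C5, at 10.08, 10.68 and 10.69 in KO and 12.11, 12.17 and 12.37 in WT. Hc was at −1.83 in air. Of 15 alveolar type 1 markers Pdpn was higher (0.28) and Cldn18, a tight junction protein, lower (−0.58), each 6.67% of the list. Both calls ended without KO replicate 1 (limma adjusted p = 0.064 for both) or KO replicate 2 (0.144 and 0.0658), that of Pdpn also without any other single array (0.0611 to 0.133).

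Few airway markers were called, all of them lower. Of 14 club cell markers 4 (28.6%, against 6.14% of all genes) were lower and 0 higher, while 8 had a positive difference and the median was 0.14. Of the 4, Cbr2, Cyp2f2 and Aldh1a1 are also in the detoxification list, and of the 11 markers in no NRF2-linked list 1 was lower. Cbr2, carbonyl reductase 2, read 12.10, 10.99 and 10.88 in KO and 12.99, 13.42 and 13.32 in WT (−1.92 ± 0.17, SE; 3.78-fold lower; limma adjusted p = 1.22e-09). It was at −0.53 in air, and its oxygen response was −1.80 in KO and −0.41, not called, in WT, a difference that passed (−1.39; limma adjusted p = 0.0016; 0.12 in a fit restricted to the 12 hyperoxia and air arrays at P4). Cyp2f2, a cytochrome P450 of club cells, read 11.01, 9.12 and 9.57 in KO and 10.84, 11.60 and 11.39 in WT, so KO replicate 1 overlapped WT. The same array stood apart in the whole club cell list, at 0.40, −1.38 and −1.65 for KO replicates 1, 2 and 3 and −1.29, −0.32 and −0.86 in WT (mean over 14 genes, relative to the median of 42 arrays). With KO replicate 1 left out, Cyp2f2 was at −1.93 and Cbr2 at −2.30. Scgb1a1, the main club cell product, was at −0.24 and not called without KO replicate 2 (limma adjusted p = 0.117) or WT replicate 2 (0.0508). It read 13.91 to 14.38, near the arrays' maximum, where a difference may not fully register. Of 15 ciliated cell markers 3 (20%) were lower, Ccdc39, Ccdc113 and Dnaic1, and none of the 3 was called without KO replicate 2 (limma adjusted p = 0.302, 0.252 and 0.125). Ces1d, a lung carboxylesterase, was lower by 1.38 as a fall on the log2 scale in all alternatives, with −0.14 in air.

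Inflammatory genes gave a mixed picture in which WT replicates 1 and 3 weighed heavily. Il6 read 8.67, 10.19 and 7.18 in KO and 10.83, 9.06 and 10.06 in WT, which overlap, and Cxcl2, a neutrophil chemokine, 7.74, 8.45 and 6.45 in KO and 9.87, 7.48 and 8.95 in WT. Both passed limma (adjusted p = 0.0242 and 0.0221) and both ended without KO replicate 3 (0.242 and 0.186), WT replicate 1 (0.175 and 0.217) or WT replicate 3 (0.0732 and 0.083), and Il6 also without KO replicate 1 (0.0622). With WT replicate 2 as the only WT array Cxcl2 turned to 0.065 (limma adjusted p = 0.963). Against air the 2 cytokines rose in both genotypes, Il6 by 4.44 in KO and 5.64 in WT.

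Other members of these lists separated more cleanly. Ccl12, a monocyte chemokine, read 7.97, 7.44 and 7.18 in KO and 8.88, 8.52 and 9.10 in WT (−1.30 ± 0.16, SE; 2.47-fold lower; limma adjusted p = 2.28e-06) and was called in every alternative run. Plaur, the urokinase receptor, read 9.83, 9.98 and 9.76 in KO and 10.93, 10.63 and 10.68 in WT (−0.89 ± 0.14, SE) and held likewise. Tnfaip3, which limits NF-kB signalling, was at −1.25 and the interferon-induced chemokine Cxcl10 at −1.49, but without WT replicate 3 Cxcl10 ended (limma adjusted p = 0.0509), and with WT replicate 2 as the only WT array Tnfaip3 did (0.0881). Of 24 genes of NF-kB, TNF and IL1 signalling 4 (16.7%) were lower and 0 higher. Of 24 chemokines 4 (16.7%) were lower and 1 (4.17%) higher (Cxcl14). Of 21 interferon response genes 5 (23.8%) were lower and 0 higher. Over all genes 6.14% were lower and 3.67% higher, so the 1 higher chemokine is near the latter share. Without WT replicate 3 the chemokines lower numbered 1 and the interferon genes 1, and without WT replicate 1 the chemokines numbered 2 and the NF-kB genes 2, while 6 chemokines were lower without WT replicate 2. The interferon genes numbered 3 without KO replicates 2 or 3 or WT replicate 2. The acute phase gene Saa3 read 14.20, 14.35 and 13.66 in KO and 14.32, 13.64 and 13.99 in WT and was not called. These values lay near the arrays' maximum (14.97 to 15.04), where a difference may not register. Lcn2, an iron-binding protein of epithelia and neutrophils, was higher, at 12.88, 13.23 and 12.61 in KO and 12.41, 11.74 and 12.05 in WT (0.84 ± 0.21, SE; limma adjusted p = 0.0104), but not without KO replicate 2 (0.0812) or WT replicate 2 (0.0737). It was the 1 called member of 13 neutrophil markers (7.69%, against 3.67% of all genes higher).

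Some markers of other lung cells were lower, at shares above the 6.14% of all genes. Of 19 macrophage markers 5 (26.3%) were lower, among them Csf1r, the receptor that macrophages need for survival (−0.44; 10.84, 10.87 and 10.93 in KO, 11.39, 11.22 and 11.36 in WT), which was not called with WT replicate 2 as the only WT array (limma adjusted p = 0.326). Marco, a scavenger receptor, was at −1.25 and ended without KO replicate 2 (0.0729) or WT replicate 1 (0.0541). The other 3 were Pparg (−0.76), a nuclear receptor of alveolar macrophages, Lpl (−0.87) and Fabp5 (−0.35), whose calls ended without 1, 5 and 5 of the 6 single arrays in that order. Relative to the median of 42 arrays, the macrophage list was highest in replicate 1 of each genotype (0.50 in KO, 0.87 in WT). Fat genes were highest in those same arrays (1.64 in KO, 1.97 in WT), and the part of fat RNA in these calls was not tested. The macrophage count was 2 without KO replicate 2, 1 without WT replicate 1 and 3 without WT replicate 3. The median of the macrophage list was −0.31 after 3 days, and also −0.39 in air at P4, −0.37 after 1 day and −0.31 after 2 days. In those other comparisons 1, 2 and 3 members were called lower in that order. Of 22 endothelial genes 5 (22.7%) were lower and 0 higher, and after 2 days 7 of the 22 had been higher in KO (3.1% of all genes were) and 0 lower. Ednrb, the endothelin B receptor, was at 0.61 after 2 days and −0.52 after 3 days, a change that passed in every alternative (limma adjusted p = 6.94e-04), while the day 3 call ended without KO replicate 2 (0.131) or WT replicate 3 (0.0686). The other 4 were Vwf (−0.56), Apln (−0.51), Cldn5 (−0.40) and Angpt1 (−0.70), whose calls ended without 3, 1, 5 and 4 of the 6 single arrays in that order. The endothelial count at day 3 was 2 without KO replicates 1 or 2, 3 without WT replicates 1 or 2 and 1 without WT replicate 3. With WT replicate 2 as the only WT array limma called 0 members of the macrophage, endothelial, B cell, clock, interferon and NF-kB lists lower. Of 9 B cell markers 3 (33.3%) were lower (Cd79a, Cd79b and Ms4a1), with 0 lower without KO replicate 1, 1 without WT replicate 1 and 1 without WT replicate 3. Among 15 myofibroblast genes limma called 0, with 2 at an unadjusted p under 0.05. Among 24 matrix genes 1 (4.17%, near the 3.67% of all genes) was higher and 3 (12.5%) lower. Elastin (Eln) was at 0.16 ± 0.13 (SE; limma adjusted p = 0.468). Emilin1, an elastic fibre protein, was at −0.57 ± 0.09 (SE), with −0.52 in air, and was not called with WT replicate 2 as the only WT array (limma adjusted p = 0.0881).

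Mitosis genes lay below WT but did not pass. Of 23 mitosis genes 23 had a negative difference with a median of −0.45, and limma called 0 at its adjusted threshold, with 1 at an unadjusted p under 0.05. Mki67, the gene of the Ki-67 antigen, read 9.16, 8.78 and 9.73 in KO and 10.05, 10.004 and 9.95 in WT (−0.78 ± 0.28, SE; limma adjusted p = 0.0775). Without KO replicate 3 it was at −1.03 (limma adjusted p = 0.0298). The list score was −0.48, −0.94 and 0.02 in KO and 0.03, 0.01 and −0.14 in WT, so KO replicate 3 lay with WT. Of 25 DNA replication genes limma called 0, with 0 at an unadjusted p under 0.05, and 13 had a positive difference (median 0.04). Of 22 p53 targets 2 (9.09%, near the 6.14% of all genes) were lower, Btg2 and Gadd45a, and neither was called without WT replicate 1 (limma adjusted p = 0.154 and 0.0971). At an unadjusted p under 0.05, 1 p53 target was higher and 3 were lower.

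The largest rises were of another kind. Trim12c, a tripartite motif gene, read 7.90, 8.15 and 8.07 in KO and 3.99, 4.17 and 4.02 in WT, which gave 3.98 ± 0.22 (SE; adjusted p = 2.13e-14 by limma). WT values lay below the 10th percentile of the arrays (4.24 to 4.33), so this is a minimum for this probe set. A second probe set of Trim12c read 5.54 in KO and 5.15 in WT on average, a difference of only 0.39. The RNA-binding protein gene Rbm45 read 9.51, 9.74 and 9.64 in KO and 7.38, 7.23 and 6.67 in WT (5.81-fold higher). Both were higher in air too, by 3.71 and 1.60, and neither difference between oxygen and air passed (limma adjusted p = 0.719 and 0.159). Trim68 (1.55), Sirpb1a (1.75) and Itga6 (1.32), an integrin of epithelial basement membranes, were also higher in all 4 genotype comparisons, as were the class I antigens H2-K1 (12.68, 12.56 and 12.74 in KO, 11.60, 11.79 and 11.70 in WT) and H2-D1 (0.93). After 1 day 538 genes were called (2.96%), 375 of them higher (2.06%). In all, 60 genes were called the same way in the 4 genotype comparisons, 37 lower and 23 higher.

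Rbm45 and Itga6 lie near Nfe2l2 in the gene order of GRCm38.p6. Within 5 Mb of Nfe2l2 on chromosome 2, 71 genes other than Nfe2l2 were measured and 14 were called (19.7%, against 9.82% of all genes), 8 higher and 6 lower. Positions were counted over measured genes only. Rbm45 is the 8th of these after Nfe2l2. Osbpl6, which was lower (6.67, 6.76 and 6.72 in KO, 7.44, 7.77 and 7.60 in WT), is the 9th, next to Rbm45. Itga6 lies 30 measured genes before Nfe2l2. A further pair of stretches, looked at after their values were seen, gave 21 of 111 measured genes (18.9%) around Trim12c on chromosome 7 and 33 of 219 (15.07%) around H2-K1 on chromosome 17. Strain of the KO and WT mice is not given in the sources used here, and its part was not tested.

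**Figure D5:**
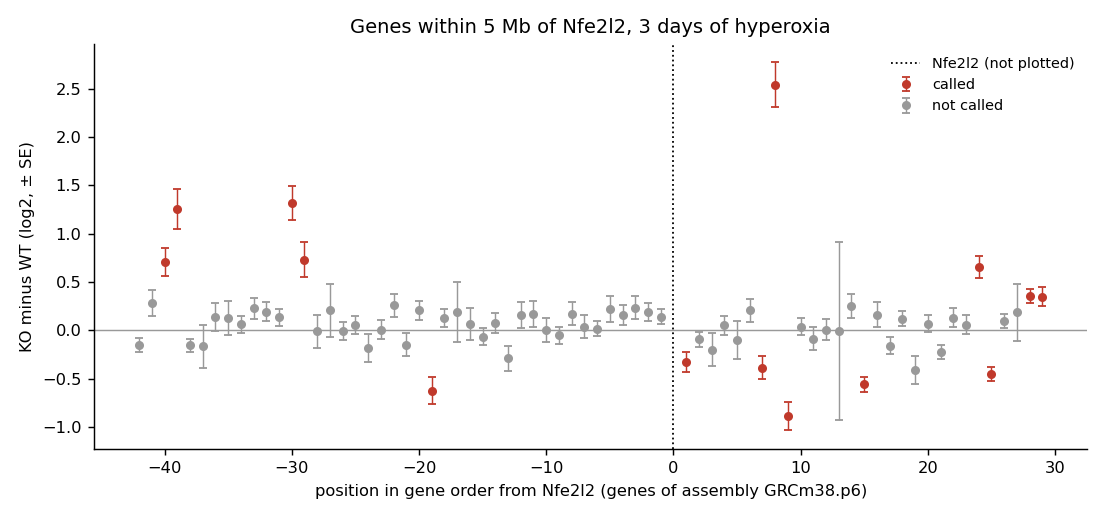
KO minus WT after 3 days of hyperoxia (y axis, log2, estimate ± SE) for 71 measured genes within 5 Mb of Nfe2l2. They are placed by their position from Nfe2l2 in the order of the measured genes (x axis). Red points were called (14) and grey ones were not, with Rbm45 highest at 2.54 and Osbpl6 lowest at −0.89.

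Other rises appeared in hyperoxia. Dmkn, dermokine, a secreted epithelial protein, read 10.52, 10.50 and 10.09 in KO and 8.40, 8.88 and 8.52 in WT (1.77 ± 0.30, SE; 3.41-fold higher; limma adjusted p = 2.43e-04). In air it read 7.90 ± 0.35 in KO and 8.62 ± 0.17 in WT (SD, n = 3), so that its oxygen response was 2.47 in KO and −0.02, not called, in WT, a difference that passed (2.49 ± 0.43, SE; limma adjusted p = 0.00215; 0.143 with WT replicate 2 as the only WT array). The protease inhibitor Tfpi2 read 10.0005, 10.65 and 8.85 in KO and 8.71, 8.63 and 8.11 in WT, 2.55-fold higher, and had been at −0.59 after 2 days (limma adjusted p = 0.263). The neural adhesion gene Chl1 read 8.05, 8.11 and 6.35 in KO and 6.29, 6.003 and 5.22 in WT, 3.18-fold higher. Other probe sets of Chl1, at 4.73, 3.74 and 4.60 in KO, low on the scale, differed by 0.54, 0.11 and −0.0004. KO replicate 3 was the lowest KO array for all 3 genes. With WT replicate 2 as the only WT array the day 3 calls of Dmkn (0.0844), Tfpi2 (0.143) and Chl1 (0.0769) ended (limma adjusted p in brackets). Large falls outside the NRF2-linked lists included Clstn2 (−2.32), Trim34a (−2.08) and Gzma (−2.05). Clstn2 and Trim34a were lower in all 4 genotype comparisons, at −1.44 and −1.55 in air. Their second probe sets differed by −1.18 and 0.57 after 3 days. Dpyd, which breaks down pyrimidines, read 6.57, 6.46 and 6.84 in KO and 8.54, 8.64 and 8.59 in WT (−1.97 ± 0.24, SE; 3.91-fold lower). It was at −0.02 after 2 days. The nuclear receptor gene Nr4a2 was 3.84-fold lower with groups that did not overlap. Its other probe sets differed less, by −1.34, −1.10, −0.28, 0.04 and 0.14 on the log2 scale.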

How the data were processed

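Gene expression was measured on Affymetrix 3′ arrays, 1 array per mouse lung, with 42 arrays in 14 groups of 3. The deposited values are log2 signals of 45101 probe sets. GCOS and RMA are named in the submitters' processing notes, with versions not given in the sources used here. This kind of summary corrects background, sets all arrays to the same distribution and summarises probes, so it compresses low signals and shows relative levels only. No read depth applies, and the number of arrays limits the precision.

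Of the probe sets 34958 carried 1 gene symbol in the platform annotation, 932 carried several and 9211 none. Symbols were checked through gene IDs for 34754 probe sets, and 0 changed. Each of 18194 genes was represented by its probe set of highest mean over the 42 arrays (9012 genes had several). The targeted gene's neighbours were taken from RefSeq gene order (GRCm38.p6), and so were the promoters.

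Group means were fitted in limma 3.58.1 (R 4.3.3) to all 42 arrays, so that the 14 groups shared 1 estimate of spread (28 residual degrees of freedom). P-values were two-sided and adjusted by Benjamini-Hochberg over all 18194 genes, with a call at an adjusted p under 0.05. Differences are KO minus WT, and oxygen effects are hyperoxia minus air. SE is the moderated standard error and SD the spread over 3 mice. The fit was tested on simulated data with known changes.

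Genes were named by rule: the 12 largest rises and 12 largest falls among called genes with non-overlapping groups, the called list members with the smallest p (up to 4 per list and direction, and further called members of the lists of NRF2 function, p53, inflammation, cell cycle and lung cell types where described), the 6 largest in each direction of the tests between comparisons, called genes within 5 Mb of Nfe2l2, and a set reported whatever its values. Not every gene that the rule covers is described in the text. The members and lists were chosen with earlier results of these data known.

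The alternatives tried were cyclic loess, robust variances with an intensity trend, weights per array, the upper 60 percent of genes by mean, probe sets averaged per gene or each tested singly, the arrays of a contrast alone, a replicate block, covariates for sex genes and for other tissues (liver, heart muscle, skeletal muscle and thymocyte), and leaving out each array. Leaving out WT replicates 1 and 3 together was added after seeing the data. Where probe sets were tested singly, a named gene took its probe set of smallest p, so that run could hardly end a call. It ended 1 of 147 calls of named genes at day 3, and the run on the upper 60 percent ended 0. Genes outside the upper 60 percent had no result in the latter run, and "every alternative" leaves it out for them.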

Additional observations from a re-analysis of the deposited data

Results flagged for a closer look

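The genotype difference (KO minus WT, log2) after 3 days of hyperoxia differed from that in other conditions by limma's test of the difference itself for 102 genes against air at P4, 845 genes against 2 days of hyperoxia and 437 genes against 1 day. The genes that the naming rule covers are given with the change in the genotype difference, and in brackets the genotype difference in each condition.

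Against air at P4 the changes were Cblif −1.72 (−1.59 after 3 days, 0.14 in air), Dmkn 2.49 (1.77 after 3 days, −0.72 in air), Dpyd −1.69 (−1.97 after 3 days, −0.27 in air), Fat3 −1.80 (−1.65 after 3 days, 0.15 in air), Gpx2 −2.35 (−3.18 after 3 days, −0.83 in air), Gsta2 −3.00 (−2.94 after 3 days, 0.05 in air), Lrg1 1.51 (0.47 after 3 days, −1.05 in air), Ntrk2 1.14 (0.52 after 3 days, −0.61 in air), Retnla 1.59 (0.28 after 3 days, −1.32 in air), Srxn1 −2.03 (−2.22 after 3 days, −0.19 in air), Tfpi2 1.80 (1.35 after 3 days, −0.45 in air) and Ube2d-ps 1.18 (1.10 after 3 days, −0.08 in air). For Gpx2, Gsta2 and Srxn1 the difference was more negative in hyperoxia, and these 3 were called in every alternative run. The call was lost in 12 of 17 alternatives for Cblif, 11 for Lrg1, 8 for Ube2d-ps, 6 for Tfpi2, 5 each for Ntrk2 and Retnla, 4 for Fat3, 2 for Dpyd and 1 for Dmkn, and for 7 of the 12 genes (Cblif, Lrg1, Ube2d-ps, Tfpi2, Ntrk2, Retnla and Fat3) leaving out a single array was enough. Within single conditions the genotype difference was called by limma for Dmkn and Tfpi2 after 3 days and not in air, for Lrg1 and Retnla in air and not after 3 days, and for Ntrk2 in neither. KO pups in air and in hyperoxia also differed in the sex genes, as given above.

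Against 2 days of hyperoxia the changes were Chl1 2.05 (1.67 after 3 days, −0.38 after 2 days), Cyp1a1 −2.38 (−1.45 after 3 days, 0.94 after 2 days), Dmkn 2.21 (1.77 after 3 days, −0.45 after 2 days), Hspa1a 1.84 (0.59 after 3 days, −1.25 after 2 days), Hspa1b 1.58 (0.83 after 3 days, −0.75 after 2 days), Npr3 −2.27 (−1.16 after 3 days, 1.12 after 2 days), Per1 −3.62 (−1.08 after 3 days, 2.54 after 2 days), Slc10a6 −2.94 (−1.49 after 3 days, 1.45 after 2 days), Slc17a2 −2.43 (−1.45 after 3 days, 0.97 after 2 days), Slc25a37 1.42 (0.34 after 3 days, −1.08 after 2 days), Tent5b −2.39 (−1.21 after 3 days, 1.18 after 2 days) and Tfpi2 1.94 (1.35 after 3 days, −0.59 after 2 days). Per1, Slc10a6, Npr3, Slc17a2 and Tent5b were called higher in KO after 2 days and lower after 3 days, and Cyp1a1 was called after 3 days only. The change was called in every alternative run for Hspa1a, Npr3, Per1, Slc10a6, Slc17a2 and Tent5b. Slc25a37 lost it in 6 of 17 alternatives, single arrays left out among them, and the other 5 genes in 1 or 2.

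Against 1 day of hyperoxia the changes were Cbr2 −1.58 (−1.92 after 3 days, −0.34 after 1 day), Chl1 1.75 (1.67 after 3 days, −0.08 after 1 day), Csf3 −1.90 (−1.87 after 3 days, 0.03 after 1 day), Dmkn 2.53 (1.77 after 3 days, −0.76 after 1 day), Dpep1 −1.68 (−0.70 after 3 days, 0.98 after 1 day), Fat3 −1.76 (−1.65 after 3 days, 0.11 after 1 day), Gsta2 −2.25 (−2.94 after 3 days, −0.69 after 1 day), Pglyrp1 2.66 (1.31 after 3 days, −1.35 after 1 day), S100a4 1.36 (0.48 after 3 days, −0.88 after 1 day), Slc17a2 −1.58 (−1.45 after 3 days, 0.13 after 1 day), Tfpi2 1.68 (1.35 after 3 days, −0.33 after 1 day) and Wfdc17 1.77 (1.18 after 3 days, −0.59 after 1 day). Dpep1, Gsta2 and S100a4 were called in every alternative run. The call ended without a single array for 5 of the 12 genes (Pglyrp1, Chl1, Tfpi2, Csf3 and Wfdc17).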

How the results depend on the processing

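Counts are given in the order day 3, day 3 against air, day 3 against day 2 and day 3 against day 1, where the deposited values gave 1786, 102, 845 and 437 calls. Leaving out each array in turn gave 932 to 1888, 36 to 409, 481 to 1108 and 185 to 919. The arrays of each contrast alone gave 284, 48, 466 and 190, WT replicate 2 as the only WT array 258, 15, 143 and 33, array weights 2010, 788, 1658 and 1691, every probe set on its own 3524, 208, 1379 and 740, the sex score 1622, 45, 688 and 135, the other-tissue scores 2370, 164, 607 and 867, cyclic loess 1780, 219, 929 and 414, and the mean over probe sets 1569, 86, 623 and 249. The share of day 3 calls that were higher was 37.4%, and 24.3% in the upper 60 percent of genes, 48.4% with probe sets averaged, 25.7% with the 6 arrays alone and 21.7% with WT replicate 2 alone. For day 3 against day 2 it was 18.8%, and 29.9% under cyclic loess and 28.9% under array weights. For day 3 against day 1 it was 18.1%, and 31.2% under array weights. A fit with fewer arrays has fewer degrees of freedom, and fits that each left out 1 array ranged from 932 to 1888 calls at day 3. The cause of the moves in these counts and shares was not tested. Deviations of same-numbered KO and WT arrays from their group means correlated at 0.07, −0.16 and 0.19, and the main fit did not pair them. With 3 arrays per group these values cannot exclude shared litters or batches. A replicate block gave 1780, 93, 905 and 487 calls and ended 1 of 147 calls of named genes. Of those 147 genes, 40 were called in every alternative, among them Gpx2, Gsta2, Gsta3, Srxn1, Gclc, Gclm, Gsr, Nqo1, Txnrd1, Slc7a11, Me1, Pgd, Sod1, Bach1, Cbr2, Sftpd, Ccl12, Rbm45 and Trim12c. Cxcl2 turned to 0.065 with WT replicate 2 as the only WT array. Ube2d-ps turned to −0.23 at day 3 and −0.24 against air with probe sets averaged, and to −1.56 and −1.65 for its probe set of smallest p. Genes near the low end of the array signal give minimum differences only.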

Other observations

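Among genes that rose with oxygen in both genotypes, Timp1 and Lcn2 were called higher in KO after 3 days, though each lost the call without single arrays. Timp1, an inhibitor of matrix proteases, rose with oxygen by 3.98 in KO and 2.96 in WT (log2), and stood at 0.80 in KO minus WT after 3 days (limma adjusted p = 0.0166). Its groups overlapped, at 12.65, 12.54 and 11.42 in KO and 11.85, 11.34 and 11.02 in WT, and the call ended without KO replicate 1 (limma adjusted p = 0.13) or KO replicate 2 (0.115), or without WT replicates 2 or 3 (0.0544 and 0.121). Lcn2 rose with oxygen by 2.33 in KO and 1.35 in WT, and its call ended without KO replicate 2 (limma adjusted p = 0.0812) or WT replicate 2 (0.0737). Saa3, an acute phase protein, rose by 6.06 in KO and 5.81 in WT, and its genotype difference after 3 days, 0.09 ± 0.41 (SE), was not called by limma. Its values in hyperoxia lay near the arrays' maximum, where a difference may not register.

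Sfn, a p53-induced 14-3-3 protein of epithelia, rose with oxygen by 1.74 in KO and 3.17 in WT. After 3 days it read 7.47, 8.06 and 7.53 in KO and 9.59, 8.76 and 9.11 in WT, 2.76-fold lower in KO (limma adjusted p = 2.12e-04, and 0.115 with WT replicate 2 as the only WT array). The stress response gene Atf3 rose by 2.20 in KO and 3.03 in WT and was 2.42-fold lower in KO after 3 days (not called with WT replicate 2 as the only WT array, limma adjusted p = 0.0978). For both genes the test of the genotype difference in oxygen minus that in air did not pass.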
